A study of Mus musculus with 6 samples.

Results

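The lipins, lipases and acyltransferases of the triglyceride cycle were compared between the fat of mice that gained much and of mice that gained little weight on the same diet. The members were 10 genes chosen by name, the phosphatidate phosphatases Lpin1, Lpin2 and Lpin3, the lipases Lipf, Lpl, Lipe, Pnpla2 and Mgll and the acyltransferases Dgat1 and Dgat2, and every array probe whose only gene symbol was a member was taken. A named probe existed for 8 of the 10 genes, 1 probe each, and 7 of these had a value on every array, out of 13840 genes with a named probe in the series, of which 8596 could be tested. Lpl and Lipe had no named probe and were not analysed here.

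The tissue was inguinal fat, a subcutaneous depot of white fat. The high gainers were 8 male C57BL/6J mice with a large weight gain after 4 weeks on the high saturated fat diet D12331, and the low gainers were 8 male C57BL/6J mice with a small gain on that diet. All animals were of this inbred strain, were housed singly before the diet and began it at 8 weeks of age, so both groups shared the diet, the sex and the genotype. RNA of the 8 mice of each group was combined into 1 pool, and each pool was hybridized to 3 single-channel chemiluminescent arrays. The 3 arrays of a pool are therefore technical repeats of 1 RNA preparation, n counts arrays, and each p-value measures the spread between arrays and compares these 2 pools, not mice. The mice were assigned to a group by their own weight gain, and no group on another diet was part of these 6 arrays.

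The signal intensities are linear and were quantile normalized before deposition, a step that gives every array the same set of values in the order of its own probes. Each array held a value for 18018 to 20605 of the 33012 probes. For the log2 signals of the 15821 probes present on all 6 arrays, Pearson's r was 0.988 to 0.994 between arrays of 1 pool. It was 0.972 to 0.980 between arrays of the 2 pools. All 13 adipocyte markers with a named probe, of 16 listed, had values on every array.

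Fat cells store fatty acids as triglyceride by joining them step by step to glycerol phosphate. Lipins remove the phosphate from phosphatidate to give diacylglycerol, and the DGAT enzymes add the last fatty acid. In fasting the order is reversed, with the lipase encoded by Pnpla2 cutting the triglyceride, the hormone-sensitive lipase encoded by Lipe acting mainly on diacylglycerol and the lipase encoded by Mgll on monoacylglycerol, while the lipoprotein lipase encoded by Lpl frees fatty acids from circulating lipoproteins at the vessel wall.

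The sequences upstream of Lipf and Lpin3 are shown because these were the members that passed the test between the pools. They are RefSeq windows of GRCm38.p6 that run from 250 bases before to 50 bases after an annotated start. The Lipf window is chr19:33960998-33961297 on the plus strand, and Lpin3 has an upstream window at chr2:160880420-160880719 and a downstream window at chr2:160887918-160888217, both on the plus strand. Capitals mark matches, on either strand, to the TATA box letters TATAA, to CCAAT, to the E-box CACGTG and to the GC box letters GGGCGG, and the nuclear receptor motif AGGTCA was searched as well.
Lipf: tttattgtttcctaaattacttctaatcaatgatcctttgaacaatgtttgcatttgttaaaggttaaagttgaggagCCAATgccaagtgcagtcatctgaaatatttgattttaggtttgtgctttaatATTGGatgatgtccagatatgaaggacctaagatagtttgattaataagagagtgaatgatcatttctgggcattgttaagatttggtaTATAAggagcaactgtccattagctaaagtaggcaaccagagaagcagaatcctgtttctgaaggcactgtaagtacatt
Lpin3, upstream window: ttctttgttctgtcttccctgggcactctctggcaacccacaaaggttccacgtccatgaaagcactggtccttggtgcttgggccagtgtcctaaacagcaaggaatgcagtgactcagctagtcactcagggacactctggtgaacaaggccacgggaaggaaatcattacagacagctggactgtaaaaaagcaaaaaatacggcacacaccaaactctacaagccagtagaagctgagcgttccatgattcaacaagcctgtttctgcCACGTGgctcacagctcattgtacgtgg
Lpin3, downstream window: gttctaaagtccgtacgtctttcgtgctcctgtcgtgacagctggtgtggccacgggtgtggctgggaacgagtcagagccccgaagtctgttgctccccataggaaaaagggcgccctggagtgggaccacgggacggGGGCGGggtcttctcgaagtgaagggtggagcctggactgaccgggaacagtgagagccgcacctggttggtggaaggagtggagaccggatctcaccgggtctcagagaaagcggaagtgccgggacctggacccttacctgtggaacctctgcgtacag

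The Lipf window was 34.3% G and C, against a median of 52.7% over the 32851 windows of the table. It held TATAA 30 bases before the start, and CCAAT 172 bases before it on the plus strand and 119 bases before it on the minus strand. TATAA was present in 24.9% of all windows and CCAAT in 37.4%. The upstream Lpin3 window held CACGTG 23 bases after its start, which 7.15% of all windows contain. The downstream Lpin3 window, 61.7% G and C, held GGGCGG 111 bases before its start, a match found in 35.7% of windows. The Lpin1 window on chromosome 12 held AGGTCA 74 bases before the start, a match found in 16.3% of windows. None of these matches was shared between the Lipf window and either Lpin3 window, and a match of letters is a description of the window and not a site of binding. The table held windows for 7 of the 10 members, not for Lpl, Dgat1 or Dgat2.

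In the comparison of the pools, Lipf and Lpin3 were higher in high gainers and no member was called lower. A call needed an adjusted p under 0.01 in limma, with the Benjamini-Hochberg method over all tested probes, together with a fold of at least 1.5. On this rule 2 of the 7 tested members were called higher, where 2.5% of all 15821 probes were called higher (396 probes), and 0 were called lower, where 3.99% of all probes were (632 probes). The 3 high-gainer arrays all lay above the 3 low-gainer arrays for 3 members (Lpin1, Lpin3 and Lipf), against 20.3% of all probes, and all lay below them for 1 member (Dgat1), against 16.3% of all probes. For the other 3 members (Pnpla2, Mgll and Dgat2) the arrays of the pools overlapped. The median log2 ratio of the 7 members was 0.06, beside 0.03 for all probes.

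**Figure D1:**
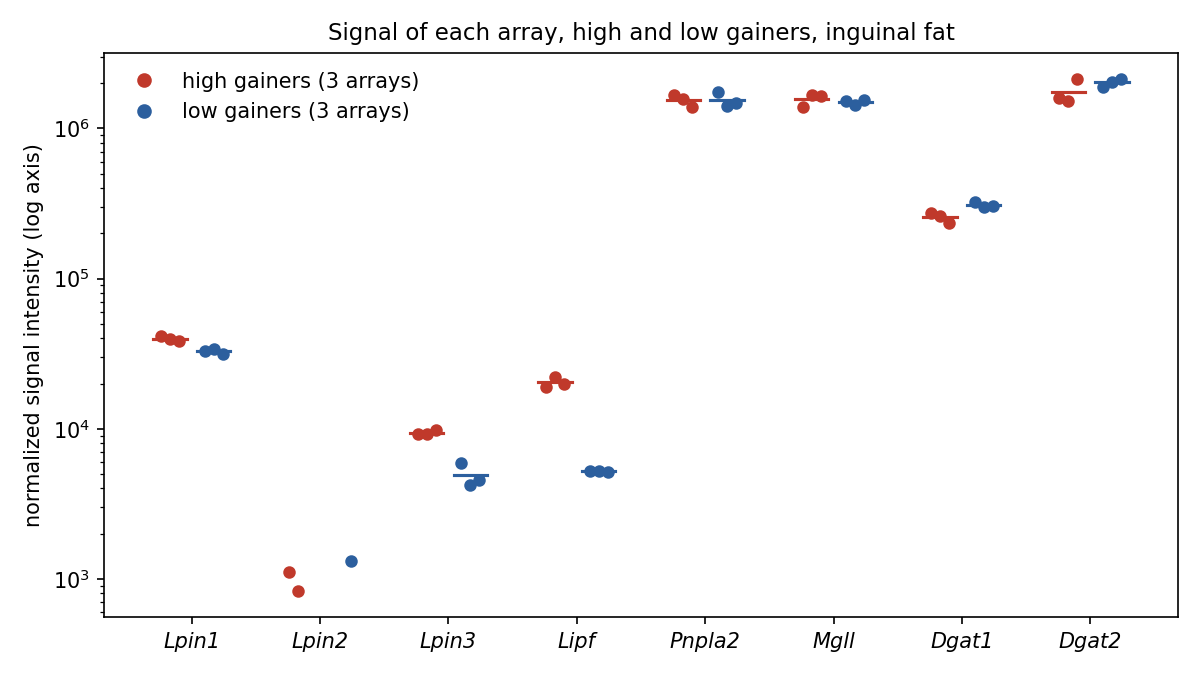
Normalized signal intensity (log axis) of each member on each array, with 3 high-gainer arrays (red) left of 3 low-gainer arrays (blue) and short lines at the mean where all 3 arrays have a value. The red points of Lipf and Lpin3 lie clear above the blue ones, those of Pnpla2 and Mgll overlap the blue ones, and Lpin2 has 3 points at the bottom of the range.

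Lpin3, a phosphatidate phosphatase of the lipin family, had signals of 9241, 9263 and 9800 on the high-gainer arrays, against 5892, 4212 and 4571 on the low-gainer arrays. All high-gainer arrays were above all low-gainer arrays, and the low-gainer arrays were the more scattered, with a coefficient of variation of 3.36% in high gainers and 18.1% in low gainers. The means were 9435 ± 317 in high gainers and 4892 ± 885 in low gainers (SD, n = 3 arrays each), a log2 ratio of 0.96 (SE 0.14) or 1.95-fold, with a 95% interval of 1.56 to 2.43 and an adjusted p of 0.00384 in limma. The probe is dim, since its mean over the 6 arrays was under the signal of 7673 that bounds the lowest 33.3% of tested probes. It stood in place 87 from the highest log2 ratio among the 8596 named genes tested.

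The Lpin3 call depended on which arrays entered the fit. It was kept without low-gainer array 1 (limma adjusted p = 0.00233, log2 ratio 1.10) and was lost without any other single array, with limma adjusted p-values of 0.0193, 0.0167 and 0.0151 without high-gainer array 1, 2 or 3 and of 0.0132 and 0.0178 without low-gainer array 2 or 3. The log2 ratio stayed between 0.86 and 1.10 in these fits.

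Lpin1, the lipin with the main role in mouse fat, was brighter in high gainers by less than the fold threshold. Its signals were 41284, 39673 and 38430 on the high-gainer arrays, against 32967, 33779 and 31598 on the low-gainer arrays. The pools did not overlap, yet the difference was small, with means of 39796 ± 1431 in high gainers and 32781 ± 1102 in low gainers (SD, n = 3 arrays each). The ratio was 1.21 with a 95% interval of 1.05 to 1.40, the log2 ratio 0.28 (SE 0.09) and the limma adjusted p 0.0747, so Lpin1 was not called.

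Lpin2 was measured on 3 of the 6 arrays. It gave 1113 and 827 on high-gainer arrays 1 and 2 and 1317 on low-gainer array 3, and the remaining 3 arrays had no value. These were among the lowest signals of their arrays, in percentiles 9.131 and 1.762 from the bottom in high gainers and 8.489 in low gainers. No ratio or test is given for Lpin2.

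The levels of different probes cannot be set against each other, so no order of abundance among the 3 lipins is given. The difference between the pools was larger for Lpin3 than for Lpin1 on the log2 scale, and their 95% intervals, 0.64 to 1.28 for Lpin3 and 0.07 to 0.49 for Lpin1, did not overlap. A direct test of that difference was not run.

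Lipf, which encodes gastric lipase, an acid-stable enzyme known from digestion of dietary fat in the stomach, differed most among the members. It had signals of 19091, 22116 and 19862 on the high-gainer arrays, against 5228, 5221 and 5159 on the low-gainer arrays. The gap between the pools was far wider than the spread within them, with a coefficient of variation of 7.72% in high gainers and 0.73% in low gainers. The means were 20356 ± 1572 in high gainers and 5203 ± 38 in low gainers (SD, n = 3 arrays each). The log2 ratio was 1.97 (SE 0.10) or 3.91-fold, with a 95% interval of 3.34 to 4.56 and an adjusted p of 0.000174 in limma. Lipf had the 6th highest log2 ratio of the 8596 named genes tested, and it kept its call without each single array, at log2 ratios of 1.90 to 2.01 and limma adjusted p-values of 0.001 to 0.00227.

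Most listed stomach markers with a named probe had no value on any array. Of 15 listed markers of stomach mucosa, 11 had a named probe and 8 of those were blank on all 6 arrays, namely Gkn2, Tff2, Muc6, Atp4a, Atp4b, Cblif, Ghrl and Pga5. Gkn1 had a value on 1 high-gainer and 1 low-gainer array (5089 and 2309), and Gast on none of the high-gainer arrays and on 3 low-gainer arrays at 905 to 1676. Chia1, an acidic chitinase, was the only marker of the list with values on all arrays, at 2096 to 2281 in high gainers and 1882 to 2783 in low gainers, with a log2 ratio of 0.01 (SE 0.16, limma adjusted p = 0.971). Of the 14 other acid and secreted lipases and cofactors listed, 8 had a named probe and 0 could be tested. Of these 8, Lipa, Liph, Lipk, Pnliprp1 and the cofactor Clps were blank on all arrays, while Lipg, Pnliprp2 and Cel had values of at most 2660 on some arrays. A blank is a missing value and not a measured low level, and Lipa, the lysosomal acid lipase used by most cells, is among the blank genes.

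Pnpla2, which encodes the adipose triglyceride lipase that starts lipolysis, did not separate the pools. Its signals were 1679902, 1560320 and 1383348 on the high-gainer arrays, against 1753805, 1403256 and 1471683 on the low-gainer arrays. The arrays of the pools were interleaved, and the means were 1541190 ± 149200 in high gainers and 1542915 ± 185813 in low gainers (SD, n = 3 arrays each). The ratio was 1.00 with a 95% interval of 0.816 to 1.23, and the limma adjusted p was 0.999.

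Mgll, which encodes monoacylglycerol lipase, the enzyme of the last step of lipolysis, also had overlapping arrays. Its signals were 1378795, 1679902 and 1632614 on the high-gainer arrays, against 1525682, 1424486 and 1533574 on the low-gainer arrays. High-gainer array 1 was the lowest of all 6 and high-gainer array 2 the highest. The means were 1563770 ± 161929 in high gainers and 1494581 ± 60832 in low gainers (SD, n = 3 arrays each), a ratio of 1.04 with a 95% interval of 0.874 to 1.24 and a limma adjusted p of 0.757.

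Dgat1, an acyltransferase that completes triglyceride and also acts on retinol, was dimmer in high gainers by less than the fold threshold. Its signals were 274205, 261734 and 234918 on the high-gainer arrays, against 324831, 300727 and 302436 on the low-gainer arrays. All high-gainer arrays lay below all low-gainer arrays, with means of 256952 ± 20075 in high gainers and 309331 ± 13450 in low gainers (SD, n = 3 arrays each). The ratio was 0.829 with a 95% interval of 0.705 to 0.976, the log2 ratio -0.27 (SE 0.10) and the limma adjusted p 0.115, so Dgat1 was not called.

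Dgat2, the unrelated enzyme that catalyses the same reaction, was among the brightest probes in both pools. Its signals were 1603142, 1514073 and 2143239 on the high-gainer arrays, against 1896512, 2025710 and 2143239 on the low-gainer arrays. High-gainer array 3 and low-gainer array 3 had the same value because the probe held rank 6 on both and quantile normalization gives equal ranks equal values at the top of the range. The other 2 high-gainer arrays were below every low-gainer array, and the high-gainer arrays had the larger coefficient of variation, 19.4% against 6.1% in low gainers. The means were 1753485 ± 340462 in high gainers and 2021820 ± 123409 in low gainers (SD, n = 3 arrays each), a ratio of 0.858 with a 95% interval of 0.677 to 1.09 and a limma adjusted p of 0.359.

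For all 5 members that were tested and not called, the 95% interval lay inside the fold threshold of 1.5 in both directions. These intervals cover the spread between arrays of 1 pool and not between mice.

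**Figure D2:**
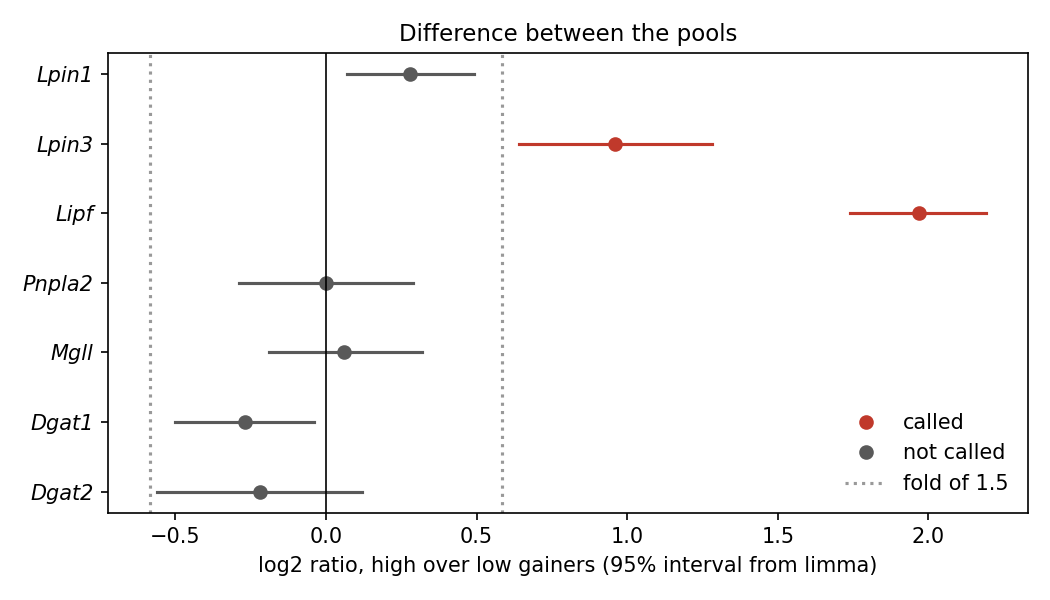
Log2 ratio of high over low gainers for the 7 tested members with the 95% interval from limma (red where called, grey where not), and dotted lines at a fold of 1.5 in each direction. Lipf at 1.97 and Lpin3 at 0.96 have intervals right of the dotted line, and the intervals of the other 5 members lie between the dotted lines.

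The rank of a probe on its own array, counted from the brightest, does not depend on the normalized scale. Lipf held ranks 6550 to 7102 on the high-gainer arrays, against 12200 to 12259 on the low-gainer arrays. Lpin3 held ranks 9633 to 9871 in high gainers and 11705 to 13083 in low gainers. For both genes the ranks of the pools did not overlap. After quantile normalization rank and signal carry nearly the same information, so this follows from the signals and is not separate support. As percentiles from the bottom among the probes with a value on the same array, Lipf was at 61.45 to 65.54 in high gainers and at 33.86 to 38.35 in low gainers, a difference of the means of 27.6 points. Lpin3 was at 46.54 to 52.1 in high gainers and at 29.07 to 40.85 in low gainers, a difference of 13.9 points.

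The shifts of the other members were smaller. Lpin1 ranks were 4509 to 4727 in high gainers and 5126 to 5353 in low gainers, and its percentiles, which also depend on how many probes had a value, differed by 2.96 points. Dgat1 ranks were 930 to 1092 in high gainers and 778 to 844 in low gainers, a difference of -0.977 points. Pnpla2, Mgll and Dgat2 were among the brightest 78 probes of every array, with ranks in high gainers of 32 to 77, 32 to 78 and 6 to 55 and in low gainers of 25 to 73, 51 to 69 and 6 to 13. At these ranks the signal is set by the rank alone, since the highest 437 ranks held the same value on all 6 arrays, and moving by 1 rank changed the signal of these 3 genes by 0.184% to 2.1%.

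**Figure D3:**
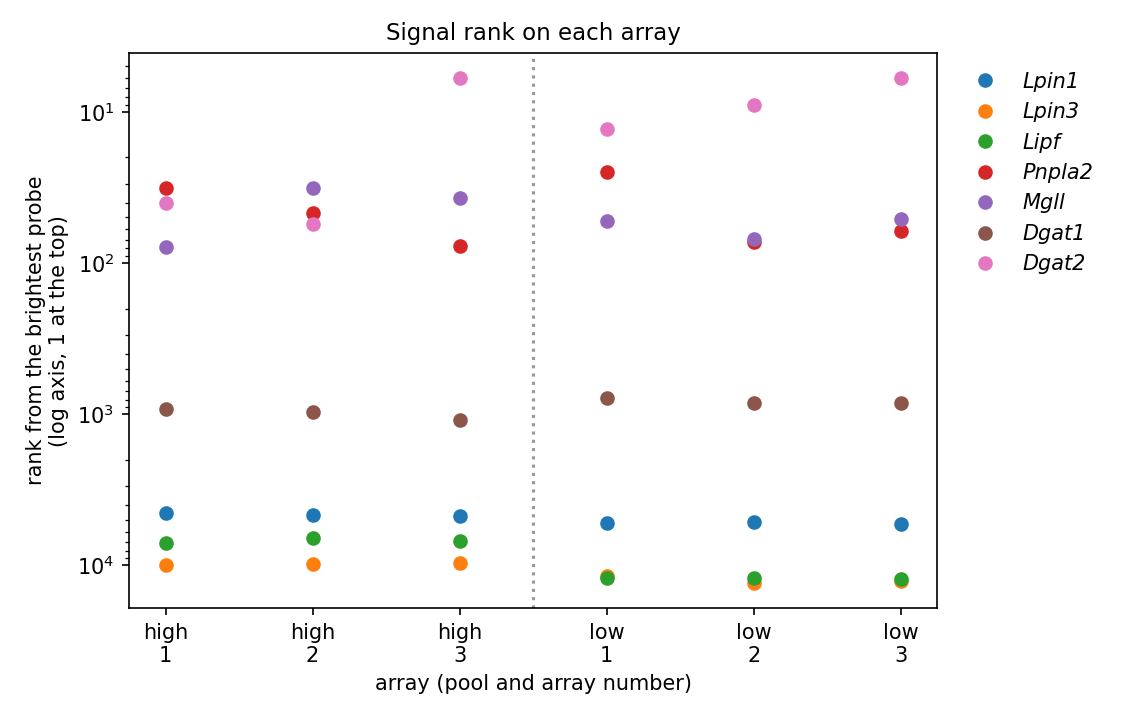
Rank of each tested member among all probes with a value on the same array (log axis, rank 1 at the top), with the 3 high-gainer arrays left and the 3 low-gainer arrays right of the dotted line. Lipf lies at ranks 6550 to 7102 on the high-gainer arrays and 12200 to 12259 on the low-gainer arrays, and Dgat2, Pnpla2 and Mgll stay among the brightest 78 probes on every array.

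The other genes of triglyceride storage and release were taken from 9 lists that hold 89 genes, of which 61 had a named probe and 51 were tested. In these lists 3 genes were called higher in high gainers (Mogat2, Hilpda and Vldlr) and 0 were called lower, with 35 log2 ratios above 0 and 16 below and a median of 0.08, beside 0.03 for all probes. The shares called in all probes were the 2.5% and 3.99% given above.

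Mogat2 encodes a monoacylglycerol acyltransferase, known from fat absorption in the intestine, that makes diacylglycerol without passing through phosphatidate. It had signals of 20588, 19894 and 22025 on the high-gainer arrays, against 10626, 9173 and 10041 on the low-gainer arrays. The pools were well apart, with a log2 ratio of 1.07 (SE 0.10, limma adjusted p = 0.00063), which was place 57 of the 8596 named genes. Of the other acyltransferases, Mogat1 had a log2 ratio of 0.12 and Tmem68, an endoplasmic reticulum acyltransferase, -0.17, neither called, and Awat2 was blank on every array.

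Hilpda encodes a small lipid droplet protein that is induced by low oxygen and inhibits the lipase of Pnpla2. It had signals of 52755, 49866 and 50552 on the high-gainer arrays, against 22082, 17567 and 20855 on the low-gainer arrays, a log2 ratio of 1.35 (SE 0.11, limma adjusted p = 0.000409) and place 24 of the named genes. Mogat2 and Hilpda kept their calls without each single array and lost them under the test of the methods after Benjamini-Hochberg adjustment. The other 8 tested regulators of lipolysis were not called. Cidec, which enlarges lipid droplets, was at -0.30 (limma adjusted p = 0.18), while Abhd5, the coactivator of the Pnpla2 lipase, was at -0.03 and its inhibitor G0s2 and the droplet coat gene Plin1 were each at 0.25.

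Vldlr, which encodes a lipoprotein receptor that works with lipoprotein lipase, was the called gene among the 8 tested partners of that lipase. It had signals of 80778, 89103 and 82938 on the high-gainer arrays, against 56444, 51114 and 55328 on the low-gainer arrays, with a log2 ratio of 0.63 (SE 0.09, limma adjusted p = 0.00461). The call was lost without each single array in turn, at limma adjusted p-values of 0.0106 to 0.0217, and also with the adipocyte markers subtracted (log2 ratio 0.45, limma adjusted p = 0.0171). Apoc2, the cofactor of lipoprotein lipase, was at 0.74 (limma adjusted p = 0.0249) and Angptl4, its inhibitor, at -0.37 (limma adjusted p = 0.0369), both outside the threshold. Apoc2 passed it in limma with an intensity trend and robust estimation (adjusted p = 0.00802) and without the dim probes (adjusted p = 0.00902).

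No gene of the remaining lists was called. The 5 tested genes of other phosphatidate phosphatases and of lipin regulators all had log2 ratios above 0, with a median of 0.41 and a lowest value of 0.09 for Ctdnep1, the phosphatase that dephosphorylates lipins in mammalian cells. Plpp3, a lipid phosphate phosphatase of the cell surface, was at 0.50 with a limma adjusted p of 0.00907 and stayed under the fold threshold, and the dim probe of Plpp2 was at 0.60 (limma adjusted p = 0.0608). The 7 tested genes of glycerol phosphate acylation had a median of 0.08 and ran from -0.38 for Agpat1 to 0.24 for Agpat2, the acyltransferase whose loss causes lipodystrophy in people. The 4 tested genes of glycerol phosphate supply had a median of 0.05, from 0.01 for Gpd1 to 0.23 for the glycerol channel gene Aqp7.

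The lowest log2 ratios of the lists were in Slc27a1 and Ces1f. Slc27a1, which encodes a fatty acid transport protein, had signals of 122602, 123275 and 121267 on the high-gainer arrays, against 194528, 318938 and 221748 on the low-gainer arrays, with a log2 ratio of -0.97 (SE 0.18, limma adjusted p = 0.0108). Low-gainer array 2 stood above the other 5, and without it the log2 ratio was -0.76 and the limma adjusted p 0.00923, which passes the threshold, as it did without low-gainer array 1 (0.00997). Ces1f, a carboxylesterase gene, had signals of 104561, 101936 and 108525 on the high-gainer arrays, against 145111, 191517 and 161288 on the low-gainer arrays, with a log2 ratio of -0.65 (SE 0.12, limma adjusted p = 0.0115). The 9 tested acylglycerol hydrolases had a median of -0.05, with Daglb, a diacylglycerol lipase gene, the highest at 0.13, and the 8 tested genes of fatty acid uptake and activation a median of 0.06, with Acsl3, an acyl-CoA synthetase, the highest of the uptake and activation list at 0.41 (limma adjusted p = 0.0249).

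**Figure D4:**
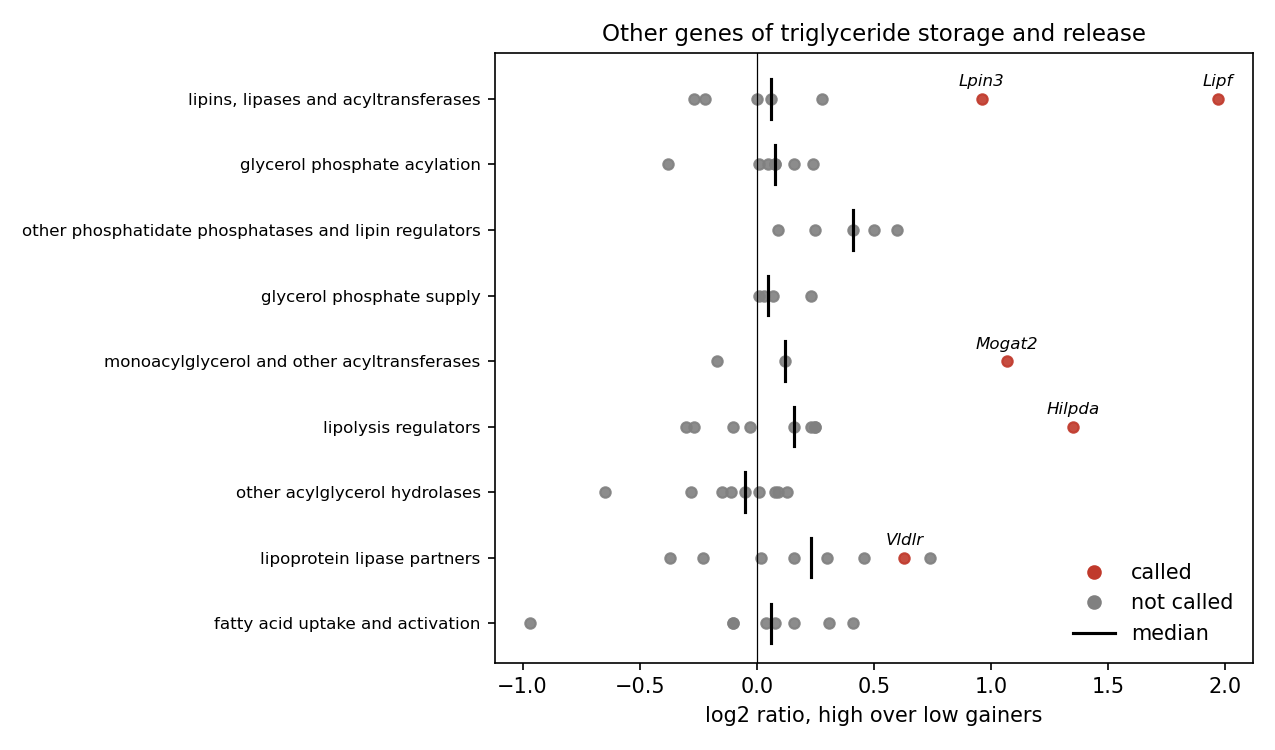
Log2 ratio of high over low gainers for the tested members (top line) and for the tested genes of 8 further lists, with red points for called genes, grey points for genes not called and black lines at the median. The called genes Lipf, Lpin3, Mogat2, Hilpda and Vldlr all lie right of 0, and the medians of the lists lie between -0.05 and 0.41.

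Markers of several cell types also differed between the pools. In RNA of whole tissue, fewer cells of a type and less RNA per cell cannot be told apart. A summed signal follows the brightest probes of its list and does not weigh the markers equally. The summed signal of the 13 adipocyte markers was 6651178 to 6802333 in high gainers, against 5505680 to 6170954 in low gainers. Their median log2 ratio was 0.19, with 11 ratios above 0 and 2 below. Of these markers 1, Lep, was called higher, at a mean of 898920 in high gainers and 504731 in low gainers. The 10 tested skeletal muscle markers of 15 listed summed to 1141782 to 1211381 in high gainers and 2111051 to 2324911 in low gainers, and 9 were called lower. The 9 tested lymphocyte markers of 12 summed to 175212 to 186024 in high gainers and 568929 to 613344 in low gainers, and 8 were called lower. The 6 tested glandular epithelium markers summed to 86908 to 124157 in high gainers and 132626 to 162758 in low gainers, and 4 were called lower. The brightest of them, Cldn4, was not called and had overlapping arrays, with means of 77518 in high gainers and 88620 in low gainers. The 8 tested brown and beige adipocyte markers summed to 899565 to 946012 in high gainers and 1165423 to 1189373 in low gainers. Most of that sum came from Cox8b, which was not called, with means of 817502 in high gainers and 995590 in low gainers. Of the 8 markers 1, Ucp1, was called lower, at 6936 to 7927 in high gainers, against 46376 to 60758 in low gainers. The macrophage list had 0 of 8 called and the endothelium list 0 of 7. The stromal progenitor list had 1 of 9 called higher and 1 called lower. Their median log2 ratios were 0.12 for macrophage (6 above 0, 2 below) and 0.23 for endothelium markers (7 above, 0 below). For stromal progenitor markers the median was 0.39 (7 above, 2 below). The endothelium markers summed to 446626 to 504962 in high gainers and 397153 to 418642 in low gainers. The macrophage and stromal progenitor sums of the pools overlapped. The part of these cell types in the differences of the members was not tested.

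The median log2 ratio of the 13 adipocyte markers, 0.19, was also subtracted from the log2 signals of the high-gainer arrays. That lowers every log2 ratio by the same amount, so the larger ratios of Lipf and Lpin3 had to stay above 0. It does not correct for adipocyte content, and markers such as Plin1 and Cidec are also in the lists above. After the subtraction Lipf stayed called and Lpin3 was at 0.77 (limma adjusted p = 0.00853). Lpin1 was then at 0.09 (limma adjusted p = 0.485), Pnpla2 at -0.19 (limma adjusted p = 0.313) and Mgll at -0.13 (limma adjusted p = 0.429). The acyltransferases were the lowest of the tested members, an order that the subtraction could not change. After it they were at -0.46 for Dgat1 (limma adjusted p = 0.019) and -0.41 for Dgat2 (limma adjusted p = 0.0868). None of these 5 genes was called.

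The genes whose signals followed Lipf and Lpin3 most closely over the 6 arrays were found by the Euclidean distance between log2 values, each centered on the mean of its own 6 arrays, among 8882 probes with 1 symbol. The nearest to Lipf were Sfrp5 (distance 0.28), Bpifb6 (0.36) and Cyp8b1 (0.41), with log2 ratios of 1.99, 2.12 and 1.66. The Sfrp5 signals, for a secreted Wnt inhibitor, were 15326, 14719 and 13739 on the high-gainer arrays, against 4021, 3734 and 3294 on the low-gainer arrays. The nearest to Lpin3 were Gabrr2 (0.11), Col18a1 (0.11) and Olfm1 (0.14), with log2 ratios of 0.94, 0.92 and 0.94. Likeness over 6 arrays of 2 pools reflects mainly the difference between the pools and the scatter of single arrays, and in all 3 genes nearest to Lpin3 low-gainer array 1 was the highest of the low-gainer arrays, as it was for Lpin3.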

How the data were processed

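Inguinal fat RNA of 1 pool of 8 high gainers and 1 pool of 8 low gainers was measured on 3 arrays each (Applied Biosystems Mouse Genome Survey, chemiluminescent detection of DIG-labeled cRNA). The deposited values are signal intensities that the authors quantile normalized, on a linear scale, with blanks for probes that an array did not report. Signal to noise and a quality flag served as detection filters in the methods. The sources used here do not give the origin of single blanks. The number of arrays limits the precision of the comparison between the pools, and 1 pool per group gives no spread between mice.

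Log2 signals of the 15821 probes present on all 6 arrays, not normalized again, were compared with limma 3.58.1 (lmFit and eBayes, no covariates) in R 4.3.3. Calls needed a Benjamini-Hochberg adjusted p under 0.01 together with a fold of at least 1.5. The procedure was tested on simulated arrays first. Deviations from the pool means correlated at r = 0.0377, -0.11 and 0.266 for arrays of equal number, and arrays were not paired in this fit. With 3 arrays per pool, these values cannot show that arrays of equal number shared no run.

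Of the probes, 14411 had 1 symbol in the annotation, 247 had several and 18354 had no symbol. The symbols of 14402 probes were looked up by gene identifier, whether or not the symbol changed. A gene with several probes was represented by the brightest. Members, gene lists and motifs were chosen with earlier results of these data known. The study itself named Lpin3 among a few transcription factors that differed between high and low gainers. It proposed that these may act more in cells of the stromal vascular fraction, possibly preadipocytes. It kept no transcription factor on its final list of candidates. Named were all members, the called genes and the highest and lowest log2 ratio of each list, and the 3 nearest genes of each called member. Further genes in the text were picked with their values in view. Promoter windows are from RefSeq GRCm38.p6, and no build is given for the probes in the sources used here. Protein sequences were not used here.

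Tried as alternatives were quantile normalization a second time, centering on all probes or on the adipocyte markers, probes with values on 2 arrays of each pool, no dim probes, an offset of 2848 (the 10th percentile of tested values), an intensity trend with robust estimation, the mean over probes, a 2-fold threshold or none, percentile ranks, the array number as a block, the test of the methods and leaving out each array. The test of the methods is ANOVA per probe, run here on the 15821 probes present on all 6 arrays. The study's own set of probes may differ, so these counts are not a repeat of those it reported.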

Additional observations from a re-analysis of the deposited data

How the results depend on the processing

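Lipf was called, and no tested member was called lower, under every alternative that gave calls. Percentile ranks gave differences only. Lpin3 lost its call, leaving 1 member called higher instead of 2, under the test of the methods after Benjamini-Hochberg adjustment, with the array number as a replicate block, at a 2-fold threshold and without the dim probes, where it was not tested, and 1 to 2 members were called higher when each array was left out in turn. With the replicate block the limma adjusted p of Lpin3 was 0.0113. The labels do not say whether arrays of equal number were run together. Of the other triglyceride genes 3 were called higher, with 0 under the adjusted test of the methods, where Mogat2 (0.0104), Hilpda (0.0113) and Vldlr (0.015) missed the threshold, and 2 without each single array, at 2-fold, with the replicate block and with adipocyte marker centering. Vldlr lost its call in each of these, at a limma adjusted p of 0.0223 with the block and of 0.0171, at a log2 ratio of 0.45, with the centering. The count rose to 4 with the intensity trend and without the dim probes, where Apoc2 was called as well. It was also 4 without a fold threshold, where Plpp3 was called as well. None of the other triglyceride genes was called lower, but 1 was under the unadjusted test of the methods (Ces1f). Slc27a1 and Ces1f, 2 genes, were called lower with adipocyte marker centering, the intensity trend, the mean over probes, the offset and without the dim probes. Without each single array 0 to 1 were called lower, Slc27a1 without low-gainer array 1 or 2. Over all probes 396 were called higher and 632 lower, with 474 higher and 679 lower under the unadjusted test of the methods, 46 higher and 111 lower under the adjusted one, 173 higher and 446 lower with the replicate block, 98 higher and 402 lower at 2-fold and 105 to 319 higher and 368 to 493 lower without each single array. Centering on the adipocyte markers moved the median of all probes by -0.19 on the log2 scale, to -0.16, and gave 174 higher and 1021 lower, so that 14.6% of the calls were higher, beside 38.5% without it. The block and the left-out arrays leave fewer residual degrees of freedom. The causes of the changes between settings, these included, were not tested. Blank values limit Lpin2, and dim signal limits Lpin3.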
